A study of Homo sapiens with 39 samples.

Results

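The levels of 10 S100 genes were followed in U937 cells, a human histiocytic lymphoma cell line of monocytic type obtained from ATCC. The members were S100A8, S100A9, S100A12, S100A4, S100A6, S100A10, S100A11, S100A13, S100P and S100B, taken as the probe sets that the array's probe-to-gene table pairs with these symbols alone. All 10 genes were measured, by 15 of 49293 probe sets, and each gene was followed by its brightest probe set among 18132 genes. Cells had received the oligonucleotide Pu27, Pu9- or Pu5- at 10 µM and were collected after 24, 48 or 72 h, or had been left untreated and collected at 0, 24, 48 or 72 h. Pu27 is homologous to the guanine-rich MYC promoter element named in the study's title, Pu9- is a shorter and Pu5- a longer relative of it, and all are given as able to form G-quadruplexes. The 13 groups held 3 arrays each, 39 in all, hybridised from 100 ng of total RNA. The protocol speaks of 3 repeat experiments, numbered in the labels without further detail, so p-values here gauge only how far the repeats lay apart, which may be technical. No oligonucleotide unrelated to the G-quadruplex sequences was among the groups, and U937 is a single transformed line. Levels are RMA log2 values, so a difference of 1 is a 2-fold difference. The probe sets used for S100A4 and S100A10 carry Affymetrix's x mark and that for S100A11 the s mark, which warn that some probes can match other transcripts.

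S100 proteins are small EF-hand calcium-binding proteins that mostly act as dimers and change shape when calcium binds. S100A8 and S100A9 pair to form calprotectin, an abundant cytosolic protein of neutrophils and monocytes that binds calcium, zinc and manganese. Once released, S100A8, S100A9 and S100A12 act on TLR4 and on the receptor AGER, known as RAGE. S100A4, S100A6, S100A10, S100A11 and S100P work largely inside the cell, where they bind annexins, myosin, ezrin and other partners. S100B is best known from glial cells.

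Most S100 genes lie together on chromosome 1. In the RefSeq annotation (GRCh38.p14), the order along the chromosome was S100A10, S100A11, S100A9, S100A12, S100A8, S100A7A, S100A7, S100A6, S100A5, S100A4, S100A3, S100A2, S100A16, S100A14, S100A13 and S100A1. The members thus include 8 genes of this stretch, with S100P on chromosome 4 and S100B on chromosome 21.

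The promoter windows of 5 genes are shown. They belong to genes whose levels moved furthest with time (S100A9 and S100A8) or passed the test as higher with Pu27 at 72 h (S100A4, S100A6 and S100P). S100A10 and S100B passed as higher with Pu27 for the mean of the 3 times. The S100A10 window is not shown, and S100B had no entry. Each runs 5′ to 3′ in the direction of the gene from 250 bases before to 50 bases after the annotated start, as given by RefSeq (GRCh38.p14). The S100A9 window lies at chr1:153357604-153357903 on the plus strand and the S100A8 window at chr1:153391024-153391323 on the minus strand. S100A4 is at chr1:153545757-153546056 and S100A6 at chr1:153535942-153536241, both on the minus strand, and S100P is at chr4:6693628-6693927 on the plus strand. Capitals mark matches on either strand to any of 4 patterns. The TATA box was searched as TATAAA. The core bound by ETS factors such as the myeloid factor PU.1 was searched as GAGGAA and reads TTCCTC where it lies on the other strand. The core bound by C/EBP factors was searched as TTGCNNAA. The usual G-quadruplex pattern was searched as 4 runs of at least 3 guanines with gaps of 1 to 7 bases.
S100A9: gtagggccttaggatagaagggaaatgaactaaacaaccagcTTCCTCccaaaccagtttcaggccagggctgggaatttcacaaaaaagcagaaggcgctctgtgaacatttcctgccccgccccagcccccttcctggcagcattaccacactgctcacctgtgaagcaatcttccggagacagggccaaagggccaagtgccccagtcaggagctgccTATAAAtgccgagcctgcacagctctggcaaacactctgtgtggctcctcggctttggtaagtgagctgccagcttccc
S100A8: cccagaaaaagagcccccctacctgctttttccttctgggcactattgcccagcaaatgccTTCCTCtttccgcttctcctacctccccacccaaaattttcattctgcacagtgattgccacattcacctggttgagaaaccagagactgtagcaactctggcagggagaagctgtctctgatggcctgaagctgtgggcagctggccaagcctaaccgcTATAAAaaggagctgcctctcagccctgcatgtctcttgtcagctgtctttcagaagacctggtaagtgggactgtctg
S100A4: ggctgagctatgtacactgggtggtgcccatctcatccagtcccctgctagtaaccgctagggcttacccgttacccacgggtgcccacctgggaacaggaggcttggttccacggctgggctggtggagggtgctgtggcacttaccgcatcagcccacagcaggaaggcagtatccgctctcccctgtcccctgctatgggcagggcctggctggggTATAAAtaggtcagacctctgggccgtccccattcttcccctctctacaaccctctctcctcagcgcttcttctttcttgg
S100A6: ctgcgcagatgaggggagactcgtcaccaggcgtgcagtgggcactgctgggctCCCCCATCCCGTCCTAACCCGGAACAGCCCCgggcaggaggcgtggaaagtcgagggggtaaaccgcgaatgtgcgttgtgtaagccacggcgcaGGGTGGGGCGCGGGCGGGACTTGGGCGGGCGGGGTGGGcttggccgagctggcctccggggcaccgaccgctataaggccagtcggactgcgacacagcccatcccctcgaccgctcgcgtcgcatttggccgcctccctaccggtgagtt
S100P: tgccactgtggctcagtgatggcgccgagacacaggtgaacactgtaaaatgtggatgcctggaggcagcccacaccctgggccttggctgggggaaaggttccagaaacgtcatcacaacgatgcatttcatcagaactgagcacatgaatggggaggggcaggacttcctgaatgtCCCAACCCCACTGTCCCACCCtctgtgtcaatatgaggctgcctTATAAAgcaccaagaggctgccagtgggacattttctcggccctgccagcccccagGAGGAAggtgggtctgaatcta

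Entries existed for 9 of the 10 members, with 13 windows. In the windows shown, S100A9 and S100A8 both carried TATAAA 29 bases before the start. A TTCCTC run lay further upstream, at 208 and 189 bases before the start. S100A8 had 3 overlapping windows, so this likeness depends on which is shown. Its window at chr1:153390927-153391226 carried TATAAA 126 bases before the start and no TTCCTC. That at chr1:153391139-153391438 carried TTCCTC 74 bases before the start and no TATAAA. S100A4 and S100P carried TATAAA 31 and 28 bases before the start. TATAAA was found in 7 of the 13 windows, against 11.5% of all 35116 windows of this length. Overlapping windows of a gene can count the same site more than once. Counted by gene, TATAAA was found in 6 of 9 members, against 3819 of all 27305 genes. The 4-run guanine pattern was found in 4 of the 13 windows, those of S100A6, S100A10, S100A11 and S100P, against 25.0% of all windows, and in S100A6 it was present on both strands. GAGGAA was found in 4 windows, of S100A8, S100A9 and S100P (27.9% of all windows), or in 3 of 9 members, against 8687 of 27305 genes. TTGCNNAA was found in 2 windows, of S100A11 and S100A12 (10.5%). A match describes letters in a window and shows no binding.

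The arrays differed little in overall brightness, with medians of 5.82 to 5.94 log2 units, and the first principal component held 57.9% of the variance and ordered the arrays mainly by time. In the untreated groups its mean score was -10.8 at 0 h, 37.3 at 24 h, -3.12 at 48 h and -30.9 at 72 h. The difference between the 3′ and 5′ ACTB control probe sets, a sign of RNA integrity, was 1.80 to 2.32 over all arrays and averaged 2.24 in Pu27 cells at 72 h, against 2.05 in untreated cells at 72 h. Of 12 myeloid marker genes, 9 lay above the median gene, with a mean over the list of 8.97 to 9.38 in the 13 groups. Of the markers of other cells, 0 of 7 T cell genes, 1 of 4 B cell genes, 0 of 3 erythroid, 0 of 5 epithelial and 0 of 6 fibroblast genes did so. In bulk RNA, fewer cells of a kind and less RNA per cell cannot be told apart.

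The group means ranged most with time. In untreated cells S100A9, S100A8 and S100B peaked at 24 h and then fell, while S100A4, S100A6, S100A10 and S100P dipped at 24 h. With Pu9- S100A4 was lowest at 72 h, at 12.69 against 12.75 at 24 h. In limma's F test over the 13 groups, with Benjamini-Hochberg adjustment over all genes and a call at an adjusted p under 0.05, 9 of the 10 members differed between groups, against 47.2% of all genes. The range of the 13 group means was 4.38 log2 units for S100A9, 2.51 for S100A8 and 2.06 for S100B, and 0.38 to 0.76 for the other members.

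S100A9, the larger partner of calprotectin, measured 5.54, 5.21 and 5.62 log2 units in untreated cells at 0 h, 8.70, 8.56 and 8.33 at 24 h, 7.59, 6.79 and 6.52 at 48 h, and 5.20, 4.46 and 4.15 at 72 h. The 24 h and 48 h arrays lay above every 0 h array, and the 72 h arrays below all of them. Untreated cells at 24 h averaged 8.53 ± 0.19, against 5.46 ± 0.22 at 0 h (SD, n = 3 each), an 8.41-fold difference (log2 difference 3.07, adjusted p = 1.05e-08). The level then fell by 3.92 log2 units at 72 h relative to 24 h (adjusted p = 2e-11). At 72 h it was 0.85 log2 units below the 0 h level, and this difference did not pass the test (adjusted p = 0.0930).

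S100A8, the other calprotectin subunit, showed the same course over a narrower range. Its untreated values were 6.08, 5.74 and 5.996 at 0 h, 8.03, 7.72 and 7.33 at 24 h, 7.11, 6.25 and 6.12 at 48 h, and 5.53, 5.38 and 5.75 at 72 h. The 24 h arrays lay above all others, and the 72 h and 0 h arrays overlapped by a single array. The 24 h mean was 7.69 ± 0.35, against 5.94 ± 0.18 at 0 h (SD, n = 3 each), a 3.37-fold difference with a log2 difference of 1.75 (SE 0.34, adjusted p = 1.25e-04). It fell by 2.14 at 72 h relative to 24 h (adjusted p = 3.94e-06). The fall by 1.20 at 48 h relative to 24 h (adjusted p = 0.00892) lost its call without replicate 1 at 24 h or without replicate 2 or 3 at 48 h (adjusted p up to 0.0630).

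S100B followed the same course, although it maps to another chromosome. It measured 6.82, 7.20 and 7.06 in untreated cells at 0 h, 8.01, 7.84 and 7.91 at 24 h, 7.33, 7.10 and 7.26 at 48 h, and 6.29, 6.04 and 6.23 at 72 h. The 24 h arrays were above and the 72 h arrays below those of every other untreated time. The difference was 0.89 at 24 h relative to 0 h (SE 0.12, adjusted p = 3.98e-07) and -0.84 at 72 h relative to 0 h (adjusted p = 1.31e-05). Its other 2 probe sets gave 0.46 and 0.62 for the 24 h difference. They averaged 6.14 and 6.56 at 0 h and 5.85 and 6.04 at 72 h. With the first of them the 72 h arrays, up to 6.17, overlapped those of 0 h (from 6.10) and 48 h (from 5.96).

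Of the 10 members, 7 passed the test between untreated cells at 24 h and 0 h, 3 higher and 4 lower, against 28.6% of all genes. The 4 that fell were S100A10, the calcium-insensitive partner of annexin A2, S100A6, a binder of CACYBP and annexins, S100P, an activator of ezrin, and S100A4, which binds non-muscle myosin. S100A10 measured 8.70, 8.73 and 8.61 at 24 h, against 9.41, 9.45 and 9.46 at 0 h, and the groups lay well apart. Its log2 difference was -0.76 (SE 0.10, adjusted p = 2.12e-07). S100A6 fell by 0.46 (adjusted p = 1.55e-05), S100P by 0.35 (adjusted p = 0.00459) and S100A4 by 0.32 (adjusted p = 0.00212). S100A12, S100A11 and S100A13 differed by 0.24, 0.14 and -0.18 and did not pass.

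The untreated series did not return to its starting point for all members. At 48 h relative to 0 h, 2 members passed against 5.18% of genes. S100A9 was higher by 1.51 (adjusted p = 0.00671), a call lost without untreated replicate 1 at 48 h (1.20, adjusted p = 0.0699), and S100A10 was lower, at -0.50 (adjusted p = 0.00197). At 72 h relative to 0 h, 3 members were lower against 15.6% of genes called in either direction. These were S100B, S100A10 (-0.45, adjusted p = 0.00167) and S100A4 (-0.24, adjusted p = 0.0443). The S100A4 call was lost in 5 of 6 cases with a single array left out, outlasting only the loss of replicate 3 at 0 h, and without replicate 1 at 0 h the difference was -0.16 (adjusted p = 0.223).

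Between 24 and 48 h in untreated cells, S100A8, S100A9 and S100B fell while S100A4, S100A6 and S100P rose, 6 members against 22.5% of genes. S100P measured 12.64, 12.27 and 12.41 at 48 h, against 11.99, 11.88 and 11.92 at 24 h, with no overlap (log2 difference 0.51, adjusted p = 1.24e-04). Between 48 and 72 h, 3 members passed against 17.4% of genes. S100A9 fell by 2.36 (adjusted p = 5.82e-06), S100B fell by 1.04 (adjusted p = 1.60e-07), and S100A13, a carrier in the release of FGF1, rose by 0.37 (adjusted p = 0.0379). The other 2 S100B probe sets fell less, from means of 6.02 and 6.68 at 48 h to 5.85 and 6.04 at 72 h. The S100A13 call outlasted only the loss of replicate 2 at 48 h, and without replicate 1 at 48 h the difference was 0.28 (adjusted p = 0.225). With replicate numbers as a block, S100A8 also fell by 0.94 (adjusted p = 4.73e-04), as did S100A11 (-0.41, adjusted p = 0.0217) and S100P (-0.22, adjusted p = 0.0327), against 20.2% of genes; same-numbered arrays of these groups deviated together (correlations 0.13 to 0.28).

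**Figure D1:**
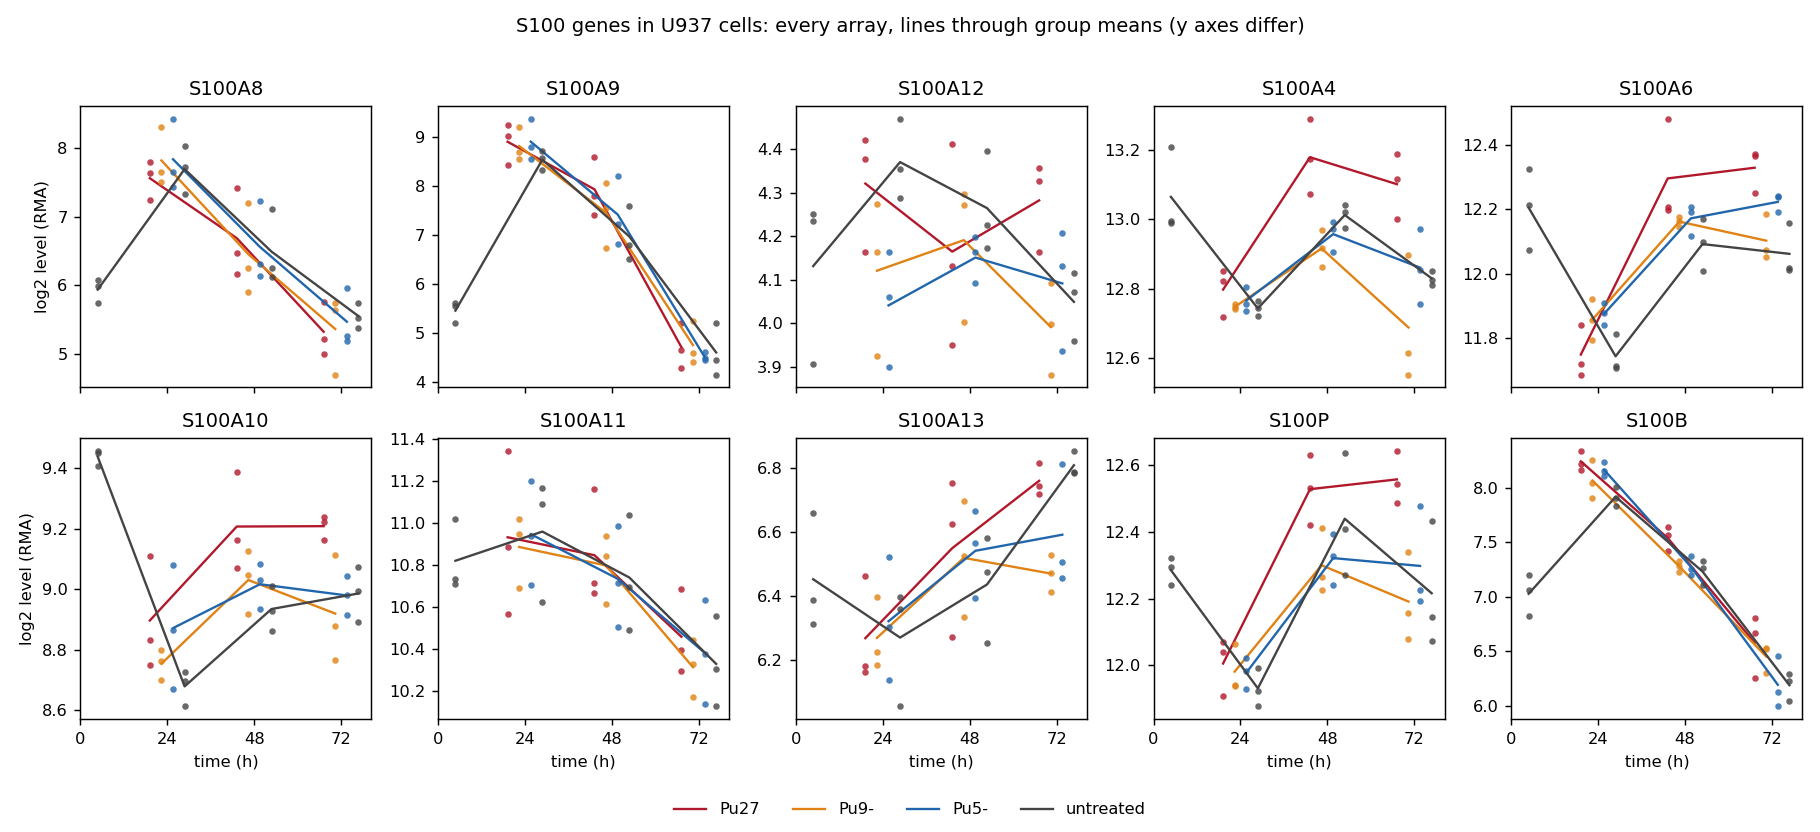
Log2 level (y axis) against hours (x axis) for each of the 10 genes, a point per array and a line through the group means, with points of a time drawn side by side. S100A9 averaged 8.53 at 24 h and 4.61 at 72 h in untreated cells, and for this gene all 4 conditions ran along the same course.

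For S100A9, S100A8, S100B and S100A11 the fall after 24 h was shared by cells with and without oligonucleotide. Pu27 cells at 72 h had S100A9 at 5.21, 4.65 and 4.28, against 9.24, 9.02 and 8.42 at 24 h. Every 72 h array lay far below every 24 h array. The difference at 72 h relative to 24 h was -4.18 with Pu27, -4.05 with Pu9-, -4.38 with Pu5- and -3.92 in untreated cells (adjusted p between 1.88e-12 and 2e-11). S100A8 differed by -2.23 with Pu27, -2.45 with Pu9-, -2.36 with Pu5- and -2.14 in untreated cells. S100B differed by -1.67, -1.62 and -1.97 with Pu27, Pu9- and Pu5-, and by -1.73 in untreated cells. S100A11, a partner of annexin A1, was also lower at 72 h in every condition, with differences of -0.47 with Pu27, -0.57 with Pu9-, -0.56 with Pu5- and -0.63 in untreated cells. With Pu27 this call was lost in 4 of 6 cases with a single array left out, and without replicate 1 at 24 h the difference was -0.27 (adjusted p = 0.324). It was lost in 2 of 6 cases each with Pu9- (adjusted p up to 0.0629) and Pu5- (up to 0.101), namely without replicate 3 at 24 h or replicate 2 at 72 h, and in 0 of 6 in untreated cells.

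Among the members that were higher at 72 h, S100A6 passed in every condition, at 0.58 with Pu27, 0.24 with Pu9-, 0.35 with Pu5- and 0.32 in untreated cells. The Pu9- call was lost without replicate 2 at 24 h or replicate 1 at 72 h (adjusted p = 0.0625 and 0.0683). S100A4 differed by 0.30 between 72 and 24 h in Pu27 cells (adjusted p = 0.00275) and passed in no other condition. The number of members called between 72 and 24 h was 9 with Pu27 (36.4% of all genes), 5 with Pu9- (35.5%), 6 with Pu5- (36.1%) and 9 in untreated cells (35.5%). Besides the losses given above, further calls among these ended with a single array left out. In untreated cells they were those of S100A12 (adjusted p up to 0.116), S100A10 (up to 0.0719) and S100P (up to 0.209). With Pu27 it was that of S100A10 (up to 0.0959), and with Pu5- that of S100P (0.0875). The counts are therefore not firm enough to rank the conditions. The tests of whether an oligonucleotide's effect differed between the 3 times called 0 members for Pu27 (0.0441% of genes), 0 for Pu9- (0.00552%) and 0 for Pu5- (0.0441%), with 0 at an unadjusted p under 0.05 in each.

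The next question was whether Pu27 changed these levels relative to untreated cells of the same time. S100A4, S100A6 and S100P passed at 72 h, and S100A4, S100A6, S100A10 and S100B for the mean of the 3 time-matched differences, all of them higher with Pu27. At 24 h 0 of 10 members passed (0.0662% of genes), with 2 at an unadjusted p under 0.05. At 48 h 0 passed (0.193% of genes), with 5 at an unadjusted p under 0.05. At 72 h 3 members were higher and 0 lower, against 2.94% of all genes called higher and 5.08% called in either direction. The median difference of the 10 members at 72 h was 0.23, against 0.04 over all genes.

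S100A4 measured 13.19, 13.12 and 13.0003 in Pu27 cells at 72 h, against 12.85, 12.83 and 12.81 in untreated cells at 72 h. All Pu27 arrays lay above all untreated arrays. The means were 13.10 ± 0.10 with Pu27 and 12.83 ± 0.02 in untreated cells (SD, n = 3 each), a 1.21-fold difference (log2 0.27, 95% interval 0.11 to 0.44, adjusted p = 0.0433). The other 2 probe sets of S100A4 gave 0.28 and 0.27.

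S100A6 measured 12.37, 12.37 and 12.25 in Pu27 cells at 72 h, against 12.01, 12.16 and 12.02 in untreated cells at 72 h. The groups did not overlap, and the difference was 0.27 (95% interval 0.11 to 0.43, adjusted p = 0.0388). S100P measured 12.64, 12.54 and 12.49 with Pu27 and 12.43, 12.07 and 12.15 in untreated cells at 72 h. Untreated replicate 1 came close to the lowest Pu27 array, and the difference was 0.34 (95% interval 0.14 to 0.54, adjusted p = 0.0317).

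These calls were close to the threshold. With the 6 compared arrays fitted alone, none of S100A4 (adjusted p = 0.213), S100A6 (0.228) and S100P (0.190) passed, and leaving out a single array ended the call in 5, 4 and 4 of 6 cases. The S100A4 call outlasted only the loss of Pu27 replicate 3 (adjusted p up to 0.184 otherwise). That of S100A6 also outlasted the loss of untreated replicate 2 (up to 0.152), and that of S100P the loss of untreated replicate 1 (up to 0.201). With the ACTB 3′ to 5′ difference as a covariate, the differences were 0.35, 0.31 and 0.44 for S100A4, S100A6 and S100P (adjusted p = 0.0125, 0.0260 and 0.00710).

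For the mean of the 3 times 4 members were higher and 0 lower, against 2.79% of genes called higher and 3.98% called in either direction. S100A10 measured 9.11, 8.83 and 8.75 with Pu27, against 8.70, 8.73 and 8.61 in untreated cells at 24 h. It measured 9.39, 9.16 and 9.07 with Pu27, against 9.01, 8.93 and 8.86 untreated at 48 h, and 9.22, 9.24 and 9.16 with Pu27, against 8.89, 9.07 and 8.99 untreated at 72 h. With the probe set used, all Pu27 arrays lay above all untreated arrays at each time. The mean difference was 0.24 (95% interval 0.12 to 0.35, adjusted p = 0.0116), and the 9 differences between arrays of the same time and number were 0.10 to 0.41. The second S100A10 probe set gave a mean difference of 0.18. With it the groups lay apart at 24 h only, and they overlapped at 48 h and at 72 h.

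S100B measured 8.34, 8.22 and 8.17 with Pu27, against 8.01, 7.84 and 7.91 in untreated cells at 24 h, and 7.57, 7.64 and 7.41 with Pu27, against 7.33, 7.10 and 7.26 untreated at 48 h. At 72 h it was 6.25, 6.67 and 6.81 with Pu27, against 6.29, 6.04 and 6.23 untreated, where the groups overlapped at Pu27 replicate 1. The mean difference over the 3 times was 0.34 (95% interval 0.20 to 0.48, adjusted p = 0.00234). It held in all 18 cases with a single array left out, as did that of S100A10. With all arrays of a replicate number left out, the S100B call was lost without number 2 or 3 (adjusted p = 0.351 and 0.0747), and the S100A10 call without any of the 3 numbers (adjusted p = 0.0896, 0.179 and 0.0960). The other 2 S100B probe sets gave mean differences of 0.25 and 0.24, and at 72 h gave 0.01 and 0.08 where the used probe set gave 0.39. The 72 h difference passed with replicate numbers as a block (adjusted p = 0.0418, against 7.13% of genes) and not without it (0.0550).

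S100A4 and S100A6 had mean differences of 0.16 each (adjusted p = 0.0382 and 0.0380). Those calls were lost in 14 and 10 of 18 cases with a single array left out, at adjusted p values up to 0.104 and 0.118, both without Pu27 replicate 1 at 48 h. Without the 72 h arrays S100B alone kept its call (adjusted p = 0.0416), with S100A10 at an adjusted p of 0.175. S100P had a mean difference of 0.17 (adjusted p = 0.0922), which passed with the block (adjusted p = 0.0157, against 5.72% of genes).

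**Figure D2:**
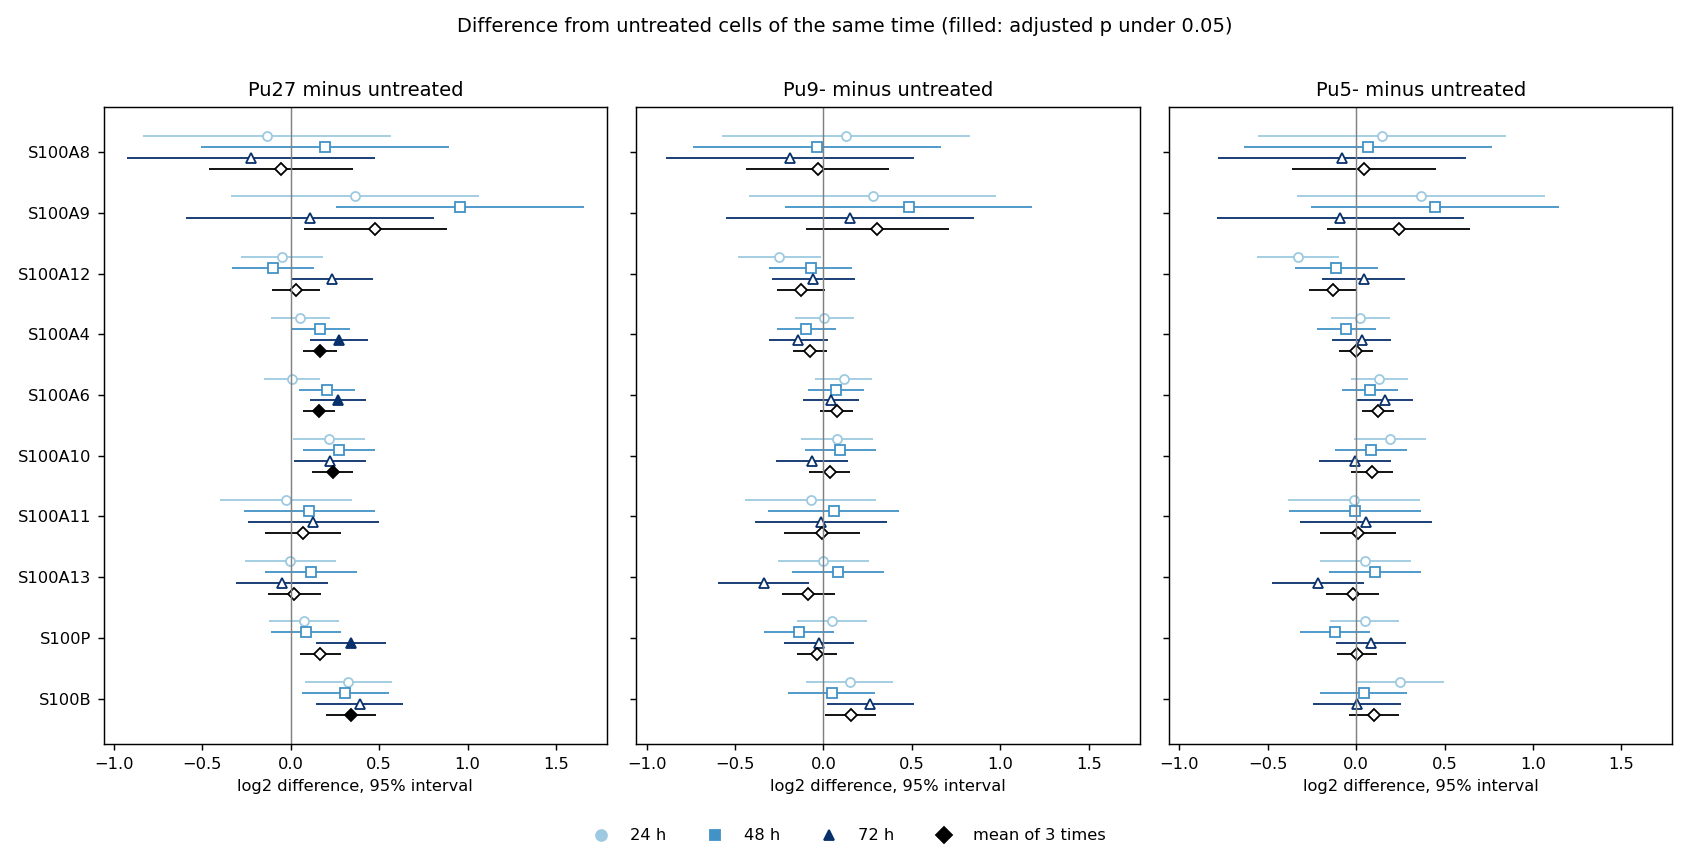
Log2 difference from untreated cells of the same time (x axis) for each gene (y axis) in 1 panel per oligonucleotide, with 95% intervals at 24, 48 and 72 h and for the mean of the 3 times. Filled points, adjusted p under 0.05, occur in the Pu27 panel only: S100A4, S100A6 and S100P at 72 h and S100A10, S100B, S100A4 and S100A6 for the mean.

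**Figure D3:**
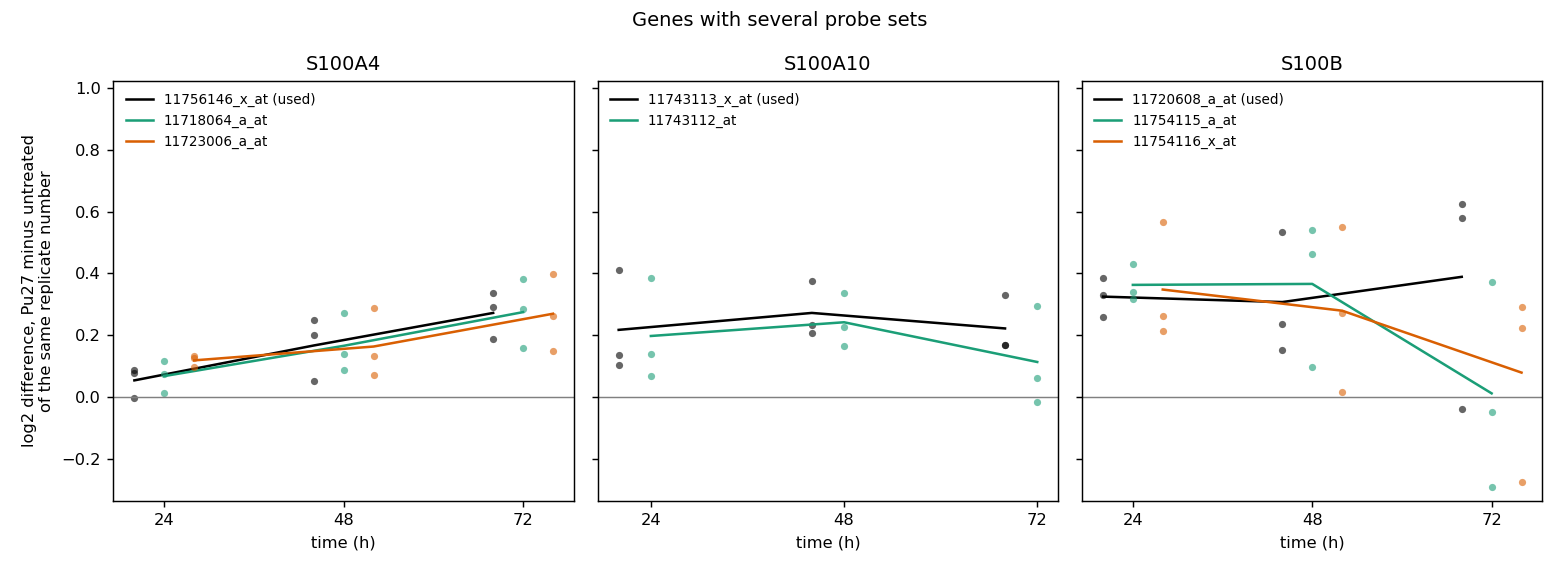
Log2 difference between Pu27 and untreated arrays of the same replicate number (y axis) for every probe set of S100A4, S100A10 and S100B at each time (x axis). The 3 S100A4 probe sets gave 0.27 to 0.28 at 72 h, and the 3 of S100B gave 0.39, 0.01 and 0.08.

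Calprotectin transcripts varied with the replicate number. S100A8 and S100A9 were each highest in replicate 1 in 12 of the 13 groups, a share of groups for a single number that 1.01% of genes reached. In the fit with a block, replicate 3 lay 0.77 below replicate 1 for S100A8 and 0.79 below it for S100A9 (adjusted p of the block 7.38e-06 and 3.12e-06, against 16.5% of genes called). S100A11 was highest in replicate 3 in 10 groups, and S100P, S100B and S100A4 in replicate 1 in 10, 10 and 11 groups. At least 10 groups for a single number were reached by 9.06% of genes, and at least 11 by 3.54%. The adjusted p of the block was 7.42e-04 for S100A11, 0.00575 for S100P and 0.0231 for S100A4. For S100B it was 0.553, so its count of 10 came without a called block effect. What the numbers share is not given in the labels.

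S100A9 at 48 h measured 8.58, 7.78 and 7.41 in Pu27 cells, against 7.59, 6.79 and 6.52 in untreated cells. The groups overlapped, and without a block the 0.96 difference did not pass (95% interval 0.26 to 1.66, adjusted p = 0.576). Between arrays of the same number, the Pu27 array was higher by 0.99, 0.99 and 0.90. Arrays of equal number deviated together across all genes in this comparison (correlations 0.21 to 0.53), and with the number as a block the difference passed (adjusted p = 0.00658, against 0.441% of genes). The paired differences were 0.54, 0.46 and 0.10 at 24 h and 0.00, 0.19 and 0.13 at 72 h. At 72 h S100A9 averaged 4.71 with Pu27 and 4.61 in untreated cells, a low level at which a difference can be missed. The mean over the 3 times was 0.48 (adjusted p = 0.224 without the block and 0.00419 with it).

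For S100A8, its partner, the paired differences lay on both sides of 0. They were -0.23, -0.08 and -0.09 at 24 h, 0.32, 0.22 and 0.05 at 48 h and 0.23, -0.17 and -0.74 at 72 h, with 4 of 9 above 0. The mean difference over the 3 times was -0.05.

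**Figure D4:**
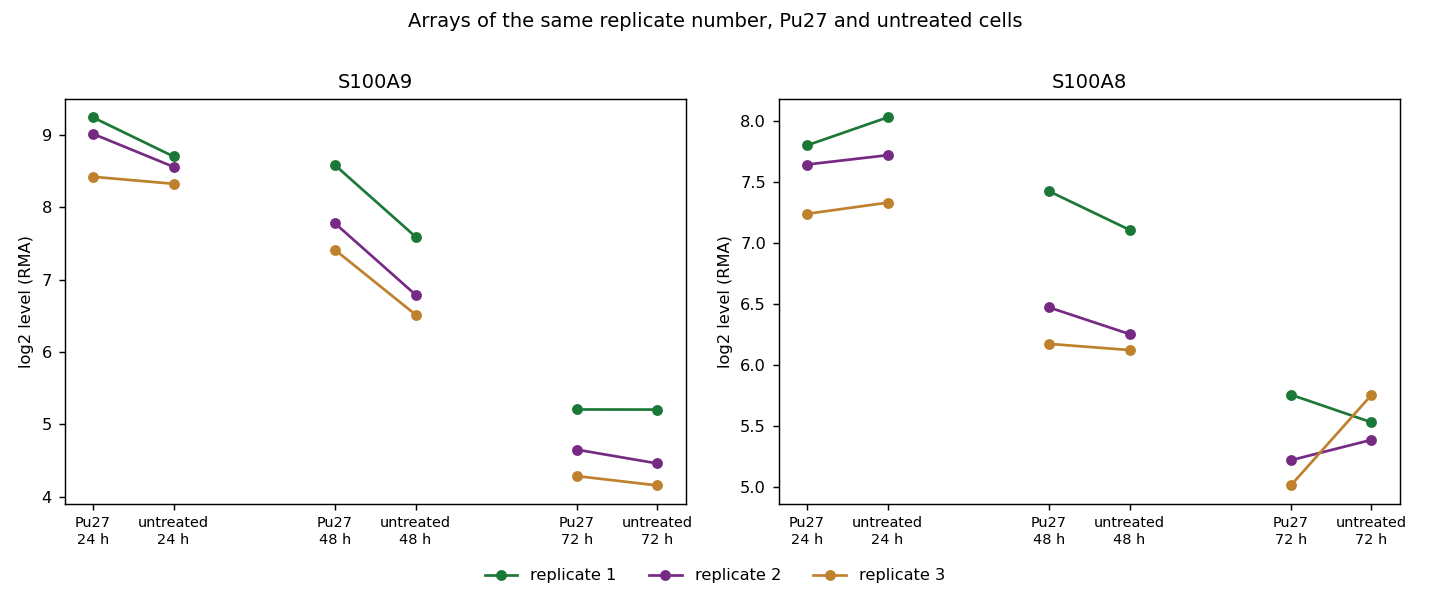
Log2 levels of S100A9 and S100A8 (y axis) in Pu27 and untreated cells at 24, 48 and 72 h (x axis), with lines joining arrays of the same replicate number. For S100A9 at 48 h the 3 lines differ by 0.99, 0.99 and 0.90 between Pu27 and untreated arrays.

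Against untreated cells, 0 members were called for Pu9- or Pu5-, with or without the replicate number as a block over all arrays. For Pu9- limma called 0 of 10, against 0.0165% of genes after 24 h, 0.0165% after 48 h, 0.960% after 72 h and 0.0882% over the 3 times, and 1, 0, 2 and 1 members had an unadjusted p under 0.05. For Pu5- it called 0 of 10, against 0.0165%, 0.0165% and 0.778% of genes after 24, 48 and 72 h and 0.254% over the 3 times, and 2, 0, 1 and 1 members had an unadjusted p under 0.05. Under Pu9- the largest 72 h difference among those at an unadjusted p under 0.05 was in S100A13, which measured 6.47, 6.53 and 6.41, against 6.86, 6.79 and 6.79 in untreated cells. All 3 Pu9- arrays lay below, with a difference of -0.34 (adjusted p = 0.203). With the replicate number within each time as a block, an alternative chosen after seeing the data, this difference passed (adjusted p = 0.0346), as did S100A9 for the mean of Pu9- (0.30, adjusted p = 0.0424). Under Pu5-, S100A6 was above the untreated array of the same number in 9 of 9 pairs, with a mean difference of 0.12 (adjusted p = 0.324). How many genes reach 9 of 9 was not computed. At 24 h same-numbered arrays did not all deviate together with untreated ones, for Pu9- (lowest correlation -0.15) or Pu5- (-2.36e-04). The matches at that time therefore go by number alone.

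Direct comparisons between oligonucleotides at the same dose and time numbered 12. Pu27 and Pu9- differed in S100A4 and S100P. S100A4 at 72 h measured 13.19, 13.12 and 13.0003 with Pu27, against 12.90, 12.61 and 12.55 with Pu9-. The groups did not overlap, and the difference was 0.41 (95% interval 0.25 to 0.58, adjusted p = 0.00601). S100P measured 12.64, 12.54 and 12.49 with Pu27, against 12.34, 12.16 and 12.08 with Pu9-, also without overlap, a difference of 0.37 (95% interval 0.17 to 0.56, adjusted p = 0.0452). These 2 calls stood against 1.51% of genes.

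For the mean of the 3 times, S100A4 differed by 0.24 between Pu27 and Pu9- (95% interval 0.15 to 0.34, adjusted p = 0.00352, against 1.38% of genes). This call held in 18 of 18 cases with a single array left out. It was lost without the arrays of replicate number 2 or 3 (adjusted p = 0.534 and 0.0823) and without the 72 h arrays (0.464). The 72 h calls were lost without Pu9- replicate 2, Pu9- replicate 3 or Pu27 replicate 1 for S100A4 (adjusted p up to 0.0641), and without any of these or Pu27 replicate 2 for S100P (up to 0.242). At 24 and 48 h 0 members passed (0% and 0.0662% of genes).

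Between Pu27 and Pu5- 0 members passed at 24 h (0% of genes), 48 h (0.0165%), 72 h (0.248%) or for the mean (0.248%), with 1, 3, 4 and 5 at an unadjusted p under 0.05. The mean difference was 0.24 for S100B (95% interval 0.10 to 0.38, adjusted p = 0.179) and 0.17 for S100A4 (95% interval 0.07 to 0.26, adjusted p = 0.164). Both intervals lie above 0, so the missed threshold does not show that Pu27 and Pu5- act alike on these genes. Between Pu9- and Pu5- 0 members passed at any time (0%, 0% and 0.0496% of genes at 24, 48 and 72 h, 0% for the mean), with 0, 0, 2 and 0 at an unadjusted p under 0.05.

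The least moving member was S100A12, a ligand of AGER, which stayed between 3.88 and 4.47 on all 39 arrays. It did pass the test between 72 and 24 h in untreated cells, with means of 4.05 and 4.37. That call was lost without replicate 1 or 3 at 24 h or replicate 2 at 72 h (adjusted p up to 0.116). The 23 background probe sets of the array had mean levels of 2.48 to 10.3, with a median of 3.16. At 72 h S100A12 measured 4.33, 4.16 and 4.36 with Pu27, against 4.12, 3.96 and 4.07 in untreated cells. The groups did not overlap, as in 5 of the 10 members at 72 h with Pu27 above, against 12% of all genes, and the difference of 0.23 did not pass (adjusted p = 0.281). S100A11 at 72 h measured 10.39, 10.30 and 10.69 with Pu27, against 10.31, 10.13 and 10.56 untreated, with overlap.

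Neighbours on chromosome 1 differed in course. S100A9, S100A12 and S100A8 are neighbours, and S100A12 moved little while both genes beside it rose at 24 h. S100A10 and S100A11 are also neighbours, and S100A10 fell by 0.76 at 24 h while S100A11 differed by 0.14. The other 11 S100 genes measured had group means within 0.20 to 0.52 of each other. Of them, 8 lie between or beside the members on this chromosome. In limma's F test over the 13 groups 0 passed (1 at an unadjusted p under 0.05), against 47.2% of all genes. S100A3, S100A5, S100A7, S100A7A, S100A7L2, S100A14, S100G and S100Z had group means of 2.86 to 4.69, below the array medians. At such low levels a change can be missed. Between Pu27 and untreated cells 0 of these 11 were called at 24, 48 or 72 h or for the mean, with 0 at an unadjusted p under 0.05. Of 7 fused S100-type genes of the epidermis, measured as a related family, 0 were called and 1 had an unadjusted p under 0.05, at 72 h.

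**Figure D5:**
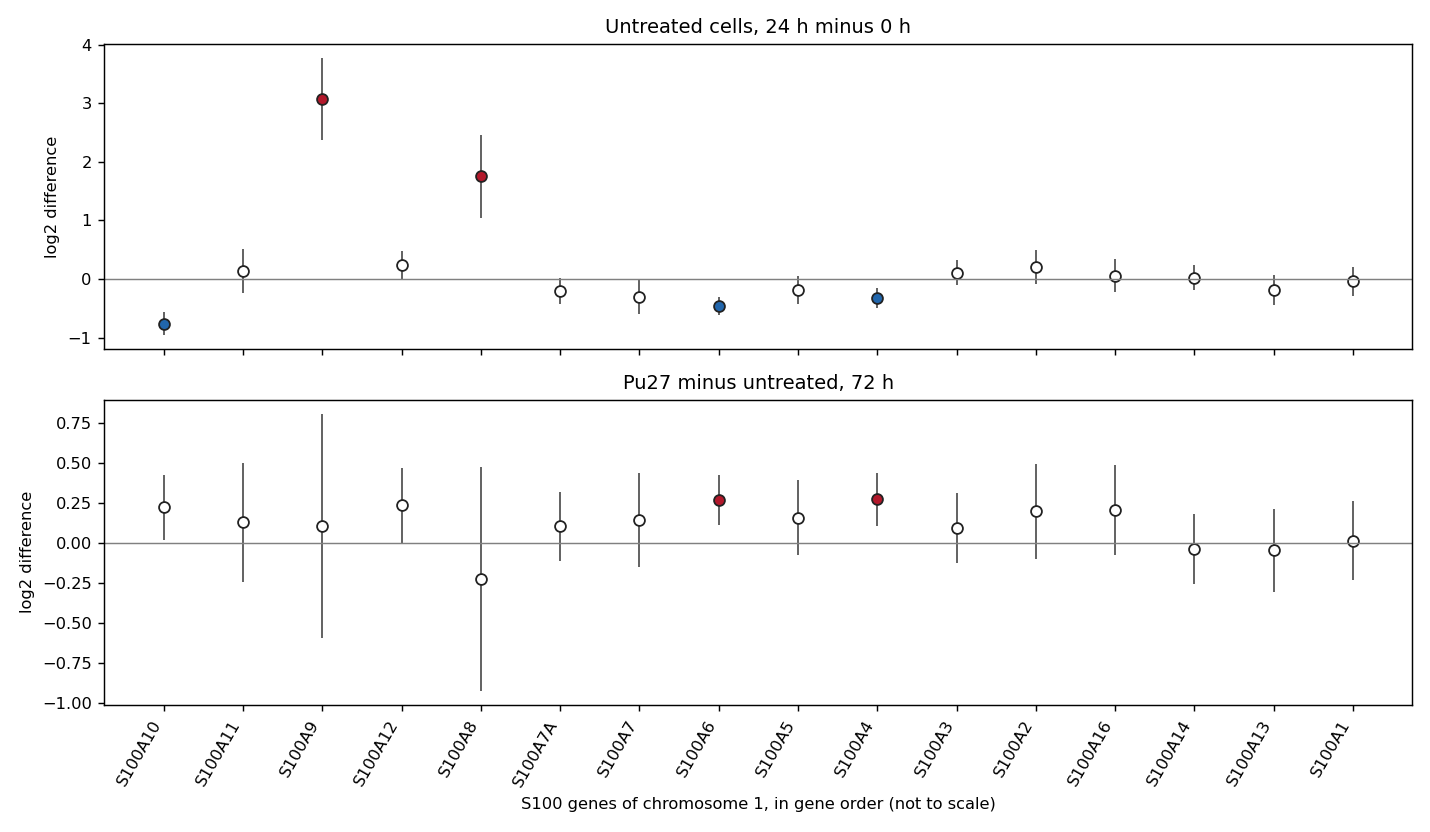
Log2 difference (y axis) with 95% interval for the 16 S100 genes of chromosome 1 in their order along it (x axis), untreated cells at 24 h minus 0 h above and Pu27 minus untreated cells at 72 h below. Red and blue mark calls higher and lower; S100A9 at 3.07 and S100A8 at 1.75 flank S100A12 at 0.24.

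Some members with like courses varied together. Over 39 arrays, which share the time course, Pearson's r was 0.94 for S100A8 and S100A9, 0.94 for S100A9 and S100B and 0.83 for S100A4 and S100P. Within groups, after subtraction of each group's mean, r was 0.82, 0.21 and 0.69 for the same pairs. S100A8 and S100A9 thus also moved together between replicates, S100A9 and S100B much less so. Some pairs with unlike courses moved together between replicates too. For S100A9 and S100P r was -0.52 over the group means and 0.70 within groups, and for S100A8 and S100A10 -0.57 and 0.66. Variation within groups was therefore not tied to a like course. Over the 39 arrays r with the first principal component was 0.95 for S100A8, 0.93 for S100A9, 0.96 for S100B and 0.67 for S100A11, and it was -0.76 for S100A6, -0.69 for S100A13 and -0.61 for S100P.

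Over the 13 group means, which share the time course, the genes most like S100A8 were EPOP, WDR77 and TSR1 (r = 0.998, 0.997 and 0.996), and 1564 genes reached an r of at least 0.9. Those most like S100A9 were GTF3C6, EI24 and MSRA (0.993, 0.991 and 0.991), with 1258 such genes. Those most like S100B were PPP2R1B, GINS3 and NDUFB2 (0.992, 0.991 and 0.991), with 1394 such genes. The course of these 3 members was thus one that many genes had.

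S100A4 and S100A10 followed less common courses. S100A4 had 8 genes that reached an r of at least 0.9, led by IFI27L2, CD84 and COL4A1 (0.953, 0.929 and 0.926), and S100A10 had 7, led by MS4A6A, FLOT2 and IFITM1 (0.957, 0.930 and 0.929). S100P was most like HAL, LY86 and GSS (0.964, 0.963 and 0.957), with 77 such genes, and S100A13 most like ZNF778, FAM120B and ZBTB4 (0.960, 0.960 and 0.953), with 70. S100A6 was most like PSMB9, ZFYVE19 and MYL6B (0.971, 0.966 and 0.962), with 220, and S100A11 most like MARCKSL1, ABHD14A and IL32 (0.987, 0.987 and 0.986), with 859.

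Genes that act with the S100 proteins were read from lists. Of 13 measured S100 receptor and signalling genes, 1 was higher with Pu27 at 72 h (2.94% of all genes) and 0 lower (2.15%). It was LY96, the co-receptor of TLR4, at 1.05 ± 0.25 (SE, adjusted p = 0.00961), and it was higher for the mean too (0.89, adjusted p = 1.76e-04). The list's median difference at 72 h was -0.02, against 0.04 over all genes.

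Of 24 binding partners, 1 was higher at 72 h, near the share of all genes (2.94%), and 0 were lower (2.15%). ANXA2, annexin A2, the partner of S100A10, differed by 0.65 ± 0.15 (SE, adjusted p = 0.00556) at 72 h and by 0.36 for the mean (adjusted p = 0.00726). ANXA1, annexin A1, the partner of S100A11, differed by 0.42 for the mean (adjusted p = 0.00275). The list's median at 72 h was 0.06. Of 14 regulators of S100A8 and S100A9 transcription, 0 passed in limma between Pu27 and untreated cells at any time or for the mean (2, 2, 0 and 2 at an unadjusted p under 0.05 at 24, 48 and 72 h and for the mean), and their median at 72 h was 0.04.

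Of 12 secreted defence proteins of neutrophils and monocytes, 3 were higher at 72 h (2.94% of all genes) and 5 for the mean (2.79%), and 0 were lower. RNASE6, an antimicrobial ribonuclease, differed by 1.66 ± 0.24 at 72 h (SE, adjusted p = 4.83e-05), RETN, resistin, by 0.61 (adjusted p = 0.00156) and RNASE2, the eosinophil-derived neurotoxin, by 0.51 (adjusted p = 0.00108). CAMP, the precursor of the peptide LL-37, differed by 0.56 for the mean (adjusted p = 0.00255). The list's median at 72 h was 0.29. Of the 12 myeloid markers 1 was called at 72 h, against 5.08% of all genes in either direction. It was ITGB2, the beta chain of the leukocyte integrins (0.44, adjusted p = 0.0151). Of the T cell, B cell, erythroid, epithelial and fibroblast markers 0 were called. The part of these values in the members' differences was not tested.

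Of 24 other EF-hand genes, 2 were higher at 72 h (2.94% of all genes). They were CALU, a calcium-binding protein of the endoplasmic reticulum (0.36, adjusted p = 0.0384), and MCU, the channel of the mitochondrial calcium uniporter (0.37, adjusted p = 0.0376). PDCD6, also called ALG-2, was lower (-0.41, adjusted p = 0.0119), against 2.15% of all genes. Of 13 genes of store-operated calcium entry and calcium pumps, ATP2A2, the endoplasmic reticulum calcium pump, was higher at 72 h (0.39, adjusted p = 0.0150). So was MCU, which is in both lists, against 2.94% of all genes called higher. STIM2, a sensor of stored calcium, was higher for the mean (0.26, adjusted p = 0.0312). The medians of these lists at 72 h were 0.12 and 0.05. In untreated cells between 24 and 0 h, where 28.6% of all genes passed, 14 of 24 binding partners passed, 9 higher and 5 lower, and 8 of 14 regulators, 3 higher and 5 lower.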

How the data were processed

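The deposited values were log2 expression levels from Affymetrix 3′ arrays, 1 value per probe set and array, normalized by the authors with RMA; RMA and limma are named in the submitters' processing notes, with versions not given in the sources used here. RMA draws in differences of bright and dim probe sets. The 2 deposited tables held identical values for the probe sets they share (largest difference 0). Of 49293 probe sets, 44988 had 1 gene symbol, 1832 several and 2473 none; each of 18132 genes was represented by its probe set of highest average level in the 39 arrays, which for 11734 genes was a choice among several. Levels of different probe sets were not compared.

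A linear model with 1 mean per group (13 groups, 26 residual and 7.13 prior degrees of freedom) was fitted to all genes in limma 3.58.1 (R 4.3.3). P-values were adjusted by the Benjamini-Hochberg method over all genes of a comparison, a gene being called at an adjusted p under 0.05. The mean of 3 times averages the 24, 48 and 72 h differences. Intervals are 95% intervals of the fit, and the number of arrays limits their precision. The model was tested on simulated data.

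Arrays of the same replicate number were taken as paired where each of the 3 same-numbered pairs had deviations from the group means that correlated above 0.1 over all genes. This held for Pu27 against untreated cells at 24, 48 and 72 h (lowest correlations 0.13, 0.21 and 0.11). The pairing comes from the data, since the labels give a number and no shared day or culture. Blocked values stand beside those results where they change a call.

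The 10 members and the gene lists were chosen with earlier results of these data known. All members are named, and from each list at most 4 genes that passed the test in a comparison with untreated cells, those with the largest change. For members with a group mean of at least 6 that passed the F test, the 3 most like genes are named. Some listed genes are not reported here. The alternatives were other samples in the fit, other choices of probe set, a shift of arrays to a common median, genes with a mean of at least 5 only, a trended robust prior, the block, the ACTB difference as a covariate, and arrays left out.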

Additional observations from a re-analysis of the deposited data

Results flagged for a closer look

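The effects of Pu27 and Pu9-, each set against the same untreated arrays, differed in 2 members when tested directly between the oligonucleotides. S100A4 differed by 0.41 log2 units between Pu27 and Pu9- at 72 h, where it averaged 13.10 ± 0.10 with Pu27 and 12.69 ± 0.18 with Pu9- (SD, n = 3 each). S100P differed by 0.37 at 72 h, at 12.56 ± 0.08 with Pu27 and 12.19 ± 0.13 with Pu9-. For the mean of the 3 times, S100A4 differed by 0.24. S100A4 lay above the untreated array of the same time and number in 8 of 9 pairs with Pu27 and in 3 of 9 pairs with Pu9-. The numbers did not pair Pu9- and untreated arrays at 24 h (lowest correlation -0.15), so those matches go by number alone.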

How the results depend on the processing

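Of 273 counts of called members recomputed under 10 settings that kept whole groups, 244 were within 1.5 times of the reported count, and 0 changes of direction occurred among called members. For Pu27 against untreated cells the 48 h count was 1 with the replicate block, over all arrays or within each time. The 72 h count was 0 with the compared groups' arrays only, 1 with every probe set tested and 1 with arrays shifted to a common median. The mean's count was 2 under each of these 3 settings and 1 without the 72 h arrays. For Pu27 against Pu9- the 72 h count was 0, 1 and 1 under those 3 settings and the 48 h count was 1 with the block within each time. Its mean count was 2 with all probe sets averaged, 3 with genes of mean 5 or more, 2 with the trended prior, 3 with the block, 3 with the ACTB covariate and 0 without the 72 h arrays. With the block within each time, chosen after seeing the data as was the setting without 72 h arrays, the counts were 4 (Pu27 against Pu9- at 72 h), 3 (its mean), 2 (Pu27 against Pu5- at 72 h), 2 (its mean), 1 (Pu9- against untreated at 72 h), 1 (its mean) and 1 (Pu27 effect differing between times). The block gave 1 for the mean of Pu27 against Pu5- and 6 for untreated 72 h against 0 h, where the numbers did not pair the arrays, and the compared arrays alone gave 1 for untreated 48 h against 0 h. In the comparisons whose numbers paired the arrays, the block changed no call beyond those already given. The causes were not tested. With single arrays or replicate numbers left out, counts were 0 to 3 for Pu27 at 72 h, 0 to 5 for its mean, 0 to 3 for Pu27 against Pu9- at 72 h and for its mean, 0 to 1 for Pu27 against Pu5- at 72 h and for its mean, 6 to 7 for untreated 24 h against 0 h, 0 to 2 at 48 h and 1 to 4 at 72 h against 0 h, and 0 to 0 in the other comparisons with or between oligonucleotides at a matched time and in the tests of effects between times. For the other comparisons between times no such range of counts was made. Calls of members lost there with a single array left out are given with their values or counts, and losses with a replicate number left out are not given.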
